A study of Mus musculus with 12 samples.

Results

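The lysosome is where a cell breaks down what it takes up, and the genes described here encode its soluble hydrolases, the proteins that help them, its membrane proteins, the pump that acidifies it, the receptors that deliver enzymes to it and transcription factors of lysosomal genes. The set is a list of 48 genes, and a gene counted when a probe set of the array was annotated to it and to no other gene. This held for 47 of the 48 and all 47 passed the filter on low signals, so they were tested among 10929 genes in all. The exception was Cd63, a tetraspanin, for which no value is given. By role the 48 are 25 hydrolases, 3 activators or carriers, 7 membrane proteins of which 6 were tested, 8 proton pump subunits, 2 sorting receptors and 3 transcription factors.

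Messenger RNA levels came from 12 arrays, 3 for each of 4 dendritic cell (DC) populations of mouse lung. All mice were male C57BL/6J, 8 to 12 weeks old, and all received 100 ng of lipopolysaccharide, an inflammatory component of bacterial walls, with 100 ug of ovalbumin in the airway. Lungs were taken 16 h later and each replicate pooled 20 mice. Conventional DC (cDC) were sorted as CD103+ and as CD11bhi CD14lo cells, below CD103+ cDC and CD14lo cDC. Monocyte-derived DC (moDC) were sorted as CD11bhi CD14hi and as CD11bhi Ly6Chi cells, below CD14hi moDC and Ly6Chi moDC; the labels name the last inf.moDCs. There was no untreated group, so every level below is a level after this exposure.

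Soluble lysosomal enzymes receive a mannose 6-phosphate tag in the Golgi and are carried by mannose 6-phosphate receptors to endosomes, from which the receptors return. The vacuolar proton pump keeps the lumen acid, which most of the hydrolases need, and heavily glycosylated membrane proteins line the wall. TFEB, MITF and TFEC are related transcription factors, and TFEB acts on many lysosomal genes through a short palindrome in their promoters. In DC lysosomal proteolysis is linked to antigen presentation: cells that destroy antigen slowly keep peptides for longer, and phagocytes of the monocyte and macrophage line are the more degradative ones.

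That palindrome, the E-box CACGTG, was searched on both strands in the RefSeq promoter windows (mouse assembly GRCm38.p6, 250 bases before to 50 after each start), and 4 of the windows that hold it are shown because these genes differ most plainly between the populations below. A window existed for 41 of the 48 genes and 13 of those (31.7%) held CACGTG, against 8.09% of 27025 genes with a window. Those 27025 genes were not limited to the genes tested on the arrays. Ctsa and Lgmn have 2 windows each and the match is in the one shown. The stretches lie on chr2:164833693-164833792, plus strand, for Ctsa, chr12:102439093-102439192, minus strand, for Lgmn, chrX:134601156-134601255, minus strand, for Gla, and chr17:12769707-12769786, minus strand, for Igf2r. They are written 5′ to 3′ with CACGTG in capitals:
Ctsa: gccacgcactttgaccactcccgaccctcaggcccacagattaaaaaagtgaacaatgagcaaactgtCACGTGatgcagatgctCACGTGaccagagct
Lgmn: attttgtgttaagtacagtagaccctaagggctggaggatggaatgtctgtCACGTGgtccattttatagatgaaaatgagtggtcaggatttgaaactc
Gla: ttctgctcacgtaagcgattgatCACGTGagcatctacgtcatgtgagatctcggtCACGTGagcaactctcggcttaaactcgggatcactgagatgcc
Igf2r: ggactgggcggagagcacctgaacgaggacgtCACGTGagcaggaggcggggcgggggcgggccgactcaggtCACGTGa
The first matching base lies 12 bases before and 5 after the start in Ctsa, 49 before it in Lgmn, 227 and 194 before it in Gla, and 48 and 7 before it in Igf2r. Among the other genes with a match, Lamp1 held 4 matches and Mcoln1 held 2. A longer palindrome with CACGTG at its centre was searched as well. Of the 41 genes with a window only 1, Igf2r, held it (2.44%), against 0.37% of the 27025 genes. With a single gene these shares cannot be compared. A match describes the letters only, and no binding was measured. No window was found for Asah1, Npc1, Atp6v0d2, Atp6v1b2, Atp6v1c1, Atp6v1h and M6pr.

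Values are MAS5 signals in arbitrary units, given for replicates 1, 2 and 3 or as mean ± SD (n = 3). A difference is a difference of log2(signal + pseudocount) with its SE from limma, which understates the change of dim genes, and a gene is called where limma's p, adjusted by Benjamini-Hochberg across the 10929 genes, was under 0.05. Every adjusted p below is of that kind, except those of further probe sets and of other settings. These came from separate limma fits and were adjusted over the probe sets or genes of the fit. A signal cannot tell fewer expressing cells from less RNA per cell. Arrays of a population correlated at 0.973 to 0.983 across genes, and the populations carried their defining markers: 5 of 5 conventional DC markers (Flt3, Zbtb46, Dpp4, Kit and Btla) were higher in the cDC, and 8 of 8 monocyte or macrophage markers were lower. The summed signal of those 8 markers ran from 6214 to 7169 in CD103+ cDC, 23497 to 26450.0 in CD14lo cDC, 58331 to 69601 in CD14hi moDC and 61931 to 66377 in Ly6Chi moDC. The list they come from names Cd14 and Ly6c genes, whose products the sort used, so such genes are no separate check of it. In the same order the 5 conventional DC markers summed to 24888 to 26408, 13149 to 13605, 4164 to 5953 and 957 to 1252. RNA quality was read from the 3′ to 5′ signal ratio of Gapdh, which rises as RNA degrades, and it was 2.74 ± 0.91 in CD103+ cDC and 1.85 ± 0.39, 1.68 ± 0.14 and 1.66 ± 0.22 in the other populations in the order above (SD, n = 3). Summed lung epithelium markers (7 tested of 11 with a probe set) were 4873 to 9385 in CD103+ cDC against 1884 to 4539 over the other 9 arrays, and 5 of the 7 were higher in CD103+ than in CD14lo cDC. The part of RNA quality and of RNA from other cells in the results was not tested.

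The first question was how the conventional and the monocyte-derived populations differ in lysosomal genes. Most of the 47 genes had lower signals in the cDC. In the mean of both cDC minus the mean of both moDC, 30 were lower and 3 (Arsb, Ppt1 and Gm2a) higher, where 41.5% of all genes tested were called, 20.7% lower and 20.8% higher. The median difference was -0.48 over the 47 genes and 0.00 over all 10929. For 23 of the 47 every cDC array lay below every moDC array, which held for 6.71% of all genes, and for 0 every cDC array lay above, against 4.97% of all genes. A comparison of such means can be called when 1 population alone differs, so the 4 pairs behind it were read as well. In all 4 pairs of a cDC with a moDC, 15 of the 47 genes were lower in the cDC, where this held for 4.43% of all genes tested. In limma 0 of the 47 were higher in all 4 at the adjusted threshold, and 0 at an unadjusted p under 0.05, where 2.63% of all genes were higher at the adjusted one. The 15 were the hydrolases Gla, Lipa, Naglu, Tpp1, Acp2, Acp5, Lgmn and Galc, the membrane proteins Lamp1, Lamp2, Cd68 and Npc1, the pump subunit Atp6v1b2 and the transcription factors Tfec and Mitf. With a difference of at least 2-fold required in each pair the 15 became 7, where this held for 2.05% of all genes.

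**Figure D1:**
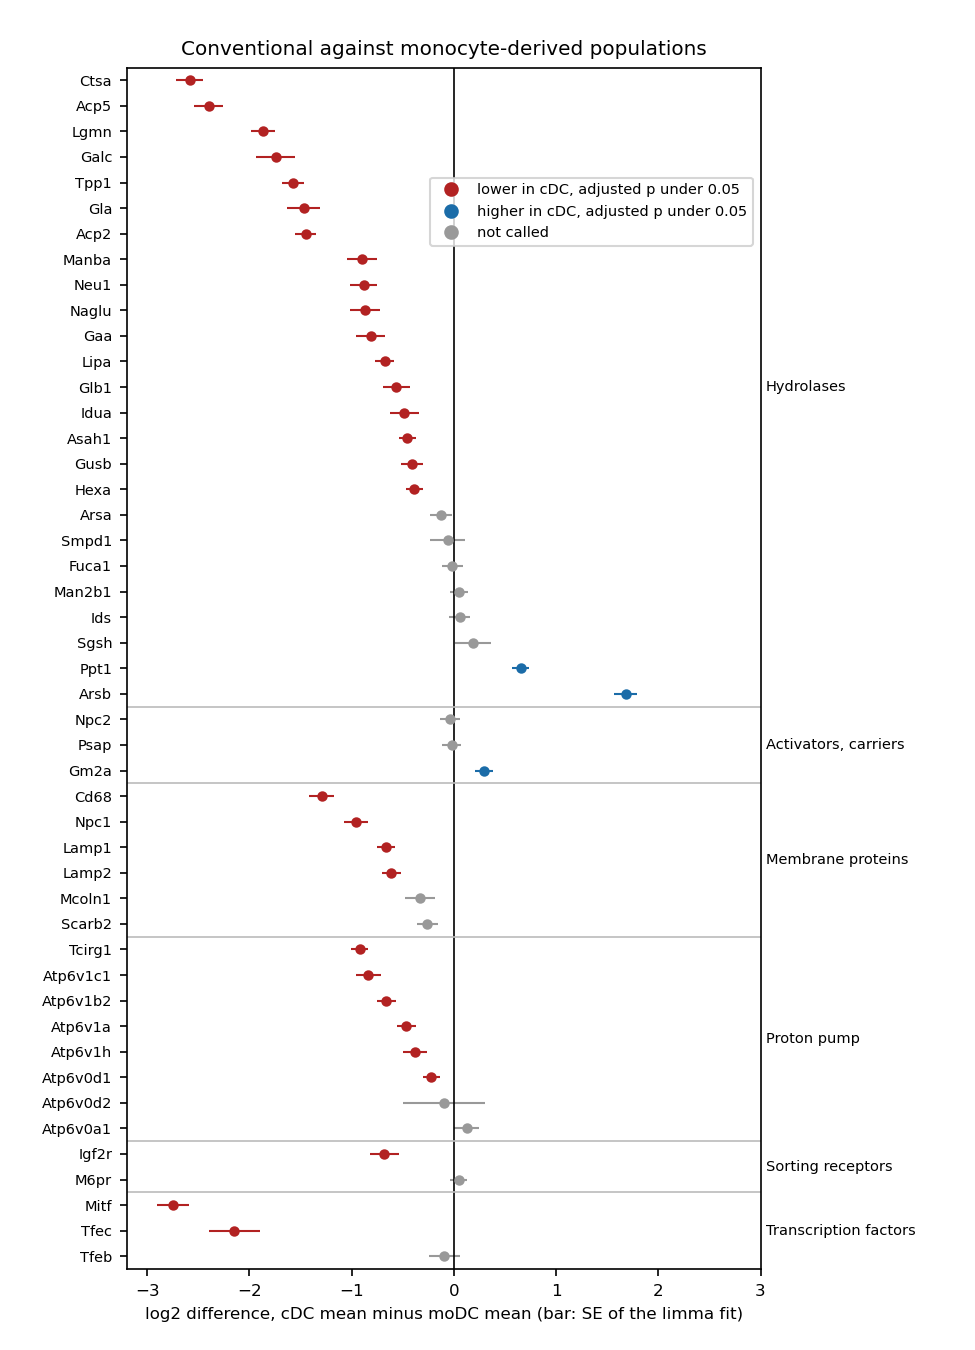
Difference of log2 signal between the cDC mean and the moDC mean for each of 47 lysosomal genes, grouped by role; points are limma estimates from 12 arrays and bars their SE. Red points are called lower (30 genes), blue points called higher (3 genes), grey points not called, and Mitf, Ctsa and Acp5 are among the points farthest below 0.

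By role, the counts were uneven. Of the 25 hydrolases 17 were lower and 2 higher in the cDC (median -0.56), of 6 membrane proteins 4 were lower (median -0.64), of 8 pump subunits 6 were lower (median -0.42), of 3 transcription factors 2, of 2 sorting receptors 1, and of 3 activators or carriers 1 was higher. Within the hydrolases, 10 of 12 glycosidases, 3 of 3 peptidases and 2 of 2 phosphatases were lower, against 2 of 4 lipid hydrolases and 0 of 4 sulfatases. Fold sizes differed too. By the probe sets used, 10 of the 47 genes were lower by at least 2-fold, where 5.74% of all genes were. No pump subunit was among them, while 1 gene was higher by as much (Arsb), where 5.18% were. The plot of every gene on every array shows the CD14hi and Ly6Chi columns above the gene mean for most hydrolases and membrane proteins.

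**Figure D2:**
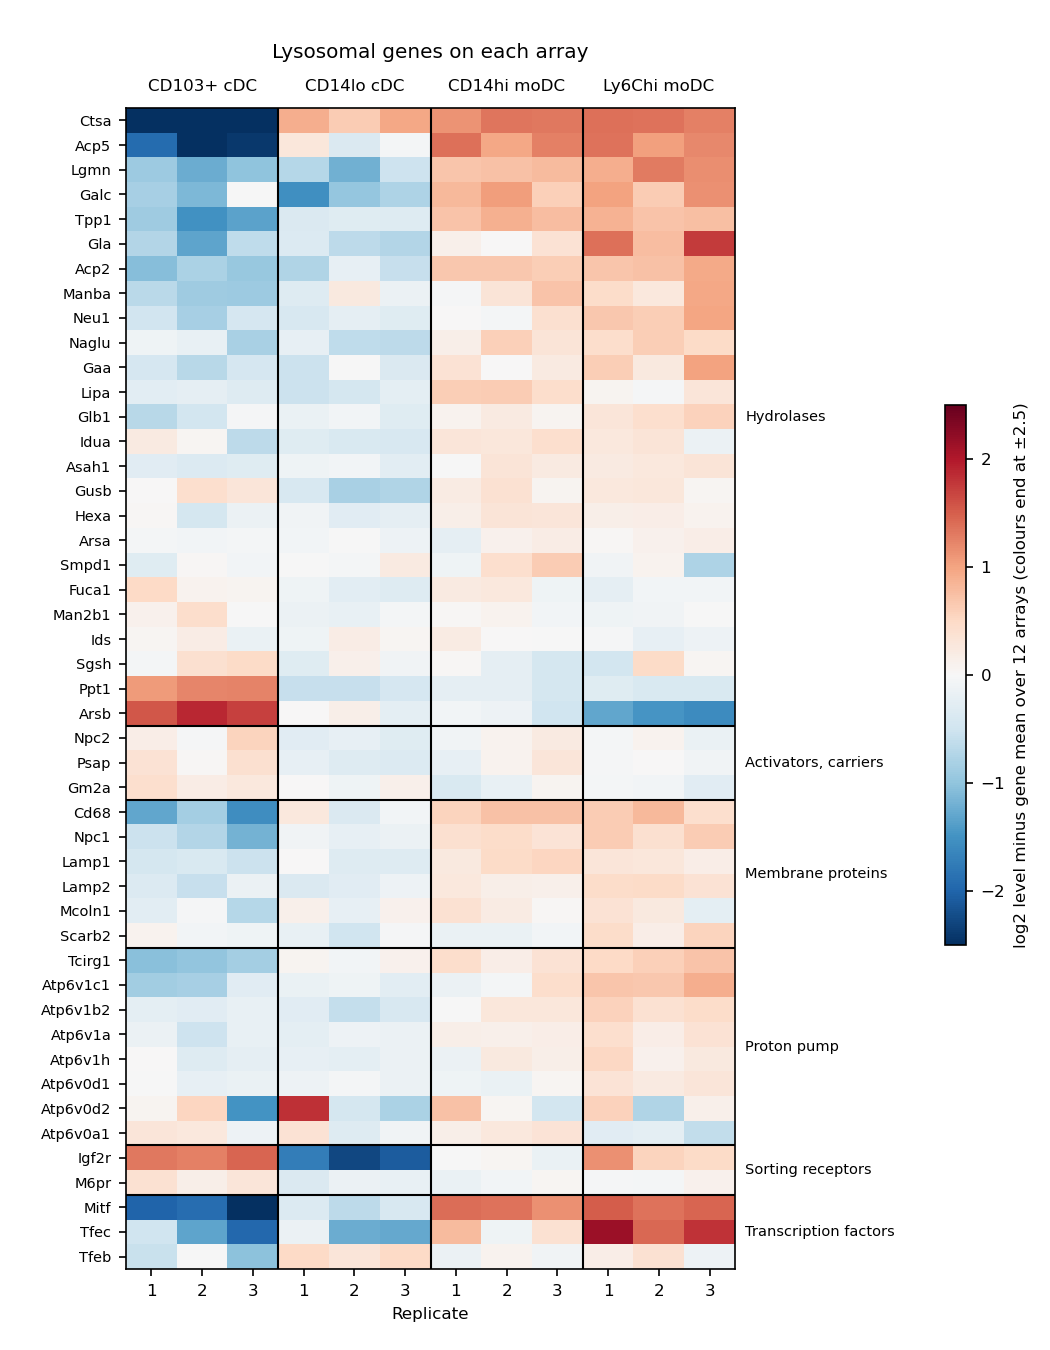
Each cell is the log2 signal of a gene on an array minus the gene's mean over 12 arrays (red above, blue below); rows are the 47 tested genes by role, columns the 3 arrays of each population. Ctsa, Acp5 and Mitf are darkest blue in the CD103+ cDC arrays, Arsb and Ppt1 are red there, and Igf2r is blue in the CD14lo cDC arrays.

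The hydrolases come first, and Ctsa leads them. It encodes cathepsin A, also called protective protein, a carboxypeptidase that holds beta-galactosidase and neuraminidase in a stable complex. Its signal was 371, 289.6 and 162 in CD103+ cDC, 6264, 5134 and 6458 in CD14lo cDC, 7204, 8415 and 8244 in CD14hi moDC and 8614, 8500.2 and 7911 in Ly6Chi moDC. The CD103+ arrays stood far below the 9 others and did not overlap with them. The difference from CD14lo cDC was -4.26 ± 0.19 (adjusted p = 1.8e-11), which is 19.1-fold. Every CD14hi array lay above every CD14lo array, yet that difference missed the threshold (0.42 ± 0.19, adjusted p = 0.16). It was called under 4 of 24 other settings, among them the mean of both probe sets (0.63, adjusted p = 0.0034), and over all 24 it ran from 0.32 to 0.63. CD14hi and Ly6Chi moDC did not differ past the threshold. Its partners in the complex moved less: beta-galactosidase, Glb1, averaged 326, 378, 478 and 604 in the order CD103+, CD14lo, CD14hi and Ly6Chi, and neuraminidase, Neu1, 269, 330.2, 467 and 752. Neither partner was called between CD103+ and CD14lo cDC, with differences of -0.21 ± 0.18 and -0.26 ± 0.19.

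Acp5 and Acp2 encode acid phosphatases, Acp5 the tartrate-resistant one that marks osteoclasts and some macrophages. Acp5 read 551, 294 and 380.0 in CD103+ cDC, 2738, 1739 and 2148 in CD14lo cDC, 5862, 4448 and 5435 in CD14hi moDC and 5789, 4620.0 and 5216 in Ly6Chi moDC. The populations formed 3 separate levels, with the moDC together at the top. CD103+ cDC were below CD14lo cDC (-2.32 ± 0.20, adjusted p = 4.7e-08) and CD14hi moDC above CD14lo cDC (1.24 ± 0.20, adjusted p = 1.6e-04). Acp2, the broadly expressed lysosomal phosphatase, read 1126, 1372 and 1215 in CD103+ cDC, 1407, 2075 and 1585 in CD14lo cDC, 3877, 3881 and 3723 in CD14hi moDC and 3910.0, 4013 and 4715 in Ly6Chi moDC. All 6 cDC arrays lay below all 6 moDC arrays and CD14hi moDC exceeded CD14lo cDC by 1.17 ± 0.15 (adjusted p = 1.5e-05). Its smaller difference between the cDC (-0.42 ± 0.15, adjusted p = 0.042) was lost under several other settings, among them without CD14lo cDC replicate 2 (-0.27, adjusted p = 0.21). The 2 other probe sets of Acp2 that passed the filter were called lower in CD103+ cDC, with differences of -1.18 and -0.96 (adjusted p = 5.0e-06 and 6.0e-05), and the mean of all 3 gave -0.85 (adjusted p = 2.3e-05).

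The peptidases Lgmn and Tpp1 were lower in both cDC than in both moDC. Lgmn encodes legumain, an asparagine-specific endopeptidase that cleaves antigens and activates cathepsins. It read 1231, 969.8 and 1143 in CD103+ cDC, 1417, 996 and 1638 in CD14lo cDC, 3869.7, 3979 and 4122 in CD14hi moDC and 4450.0, 5897 and 5347 in Ly6Chi moDC. The cDC did not differ past the threshold (-0.24 ± 0.17, 95% interval -0.63 to 0.14) and every moDC array was above every cDC array. CD14hi moDC were 2.94-fold above CD14lo cDC (1.56 ± 0.17, adjusted p = 2.4e-06). Tpp1, a tripeptidyl peptidase, read 1281, 811 and 918 in CD103+ cDC, 1866, 1931 and 1915 in CD14lo cDC, 3973, 4513 and 4157 in CD14hi moDC and 4403, 3977 and 4082 in Ly6Chi moDC. It showed 3 levels like Acp5, with CD103+ below CD14lo cDC (-0.92 ± 0.15, adjusted p = 1.2e-04) and the moDC not parted (-0.02 ± 0.15, adjusted p = 0.95).

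Glycosidases strip sugars from glycoproteins, glycolipids and glycosaminoglycans. Gla, the alpha-galactosidase A that is deficient in Fabry disease, read 610.3, 392 and 657 in CD103+ cDC, 815, 650.5 and 609 in CD14lo cDC, 1156, 1057 and 1358 in CD14hi moDC and 2790.2, 1829 and 3647 in Ly6Chi moDC. It was 1 of 6 genes called higher in Ly6Chi moDC than in each of the 3 others, 1.13 ± 0.22 above CD14hi moDC (adjusted p = 0.0013), and Ly6Chi replicate 2 was the lowest of its group. Its call between CD14hi moDC and CD14lo cDC (0.75 ± 0.22, adjusted p = 0.028) was lost when any of 4 single arrays was left out, with a highest adjusted p of 0.11. Galc, which degrades the myelin lipid galactosylceramide, was dim in the cDC and read 102, 74.3 and 217 in CD103+ cDC, 43.1, 88.5 and 109 in CD14lo cDC, 421, 505 and 359 in CD14hi moDC and 489.8, 372 and 549 in Ly6Chi moDC. No cDC array reached the lowest moDC array, and CD14hi moDC were above CD14lo cDC (1.90 ± 0.27, adjusted p = 5.5e-05). On 2 of 3 CD14lo arrays Galc read below the array's median signal, so no fold is given, and over the settings run the difference ranged from 1.17 to 2.35. Smaller falls in the cDC were called for Manba (-0.90), Neu1 (-0.88), Naglu (-0.87), Gaa (-0.81), Glb1 (-0.56), Idua (-0.48), Gusb (-0.41) and Hexa (-0.39), as differences of cDC minus moDC. The lipid hydrolases Lipa and Asah1 were lower as well (-0.67 and -0.46). Lipa, the acid lipase that frees cholesterol from lipoproteins, was the 1 gene of the 47 called higher in CD14hi moDC than in each other population, with means of 2559 ± 86.7, 2321 ± 242, 4576 ± 329 and 3366 ± 417 in the order CD103+, CD14lo, CD14hi and Ly6Chi. Gusb, the beta-glucuronidase, had another shape: its means were 3059 ± 447, 1622 ± 259, 2996 ± 327 and 2946 ± 259.5 in the same order. CD14lo cDC were lower than each other population and the other 3 did not differ past the threshold, so its fall in the cDC mean came from the CD14lo arrays.

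Arsb and Ppt1 ran against the rest. Arsb encodes arylsulfatase B, which removes sulfate from dermatan and chondroitin sulfate. Its signal was 3594, 4543 and 4020.3 in CD103+ cDC, 1202, 1320.0 and 1002 in CD14lo cDC, 1136, 1085 and 835 in CD14hi moDC and 455, 401 and 367 in Ly6Chi moDC. CD103+ cDC were 3.35-fold above CD14lo cDC (1.75 ± 0.16, adjusted p = 1.7e-07) and Ly6Chi moDC below CD14hi moDC (-1.22 ± 0.16, adjusted p = 2.4e-05), while the middle pair overlapped. It was the 1 gene of the 47 that fell in the order CD103+, CD14lo, CD14hi, Ly6Chi, an order in which 11.9% of all genes fell. Ppt1 encodes palmitoyl-protein thioesterase 1, which cuts fatty acids from proteins. Its signal was 12298, 13613 and 13857 in CD103+ cDC, 3913, 3897 and 4345 in CD14lo cDC, 4988, 4951 and 4288 in CD14hi moDC and 4707, 4479 and 4475 in Ly6Chi moDC. CD103+ cDC were 3.24-fold above CD14lo cDC (1.70 ± 0.11, adjusted p = 2.4e-09), and the other 9 arrays lay together. All 4 further probe sets of Ppt1 that passed the filter were higher in CD103+ than in CD14lo cDC, with differences from 1.39 to 2.03. The other sulfatases Ids, Sgsh and Arsa were not called in any pair by the probe sets used. Some further probe sets of Ids were called lower in Ly6Chi than in CD14hi moDC, with differences of -0.60 and -0.68, and others were not called there.

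**Figure D3:**
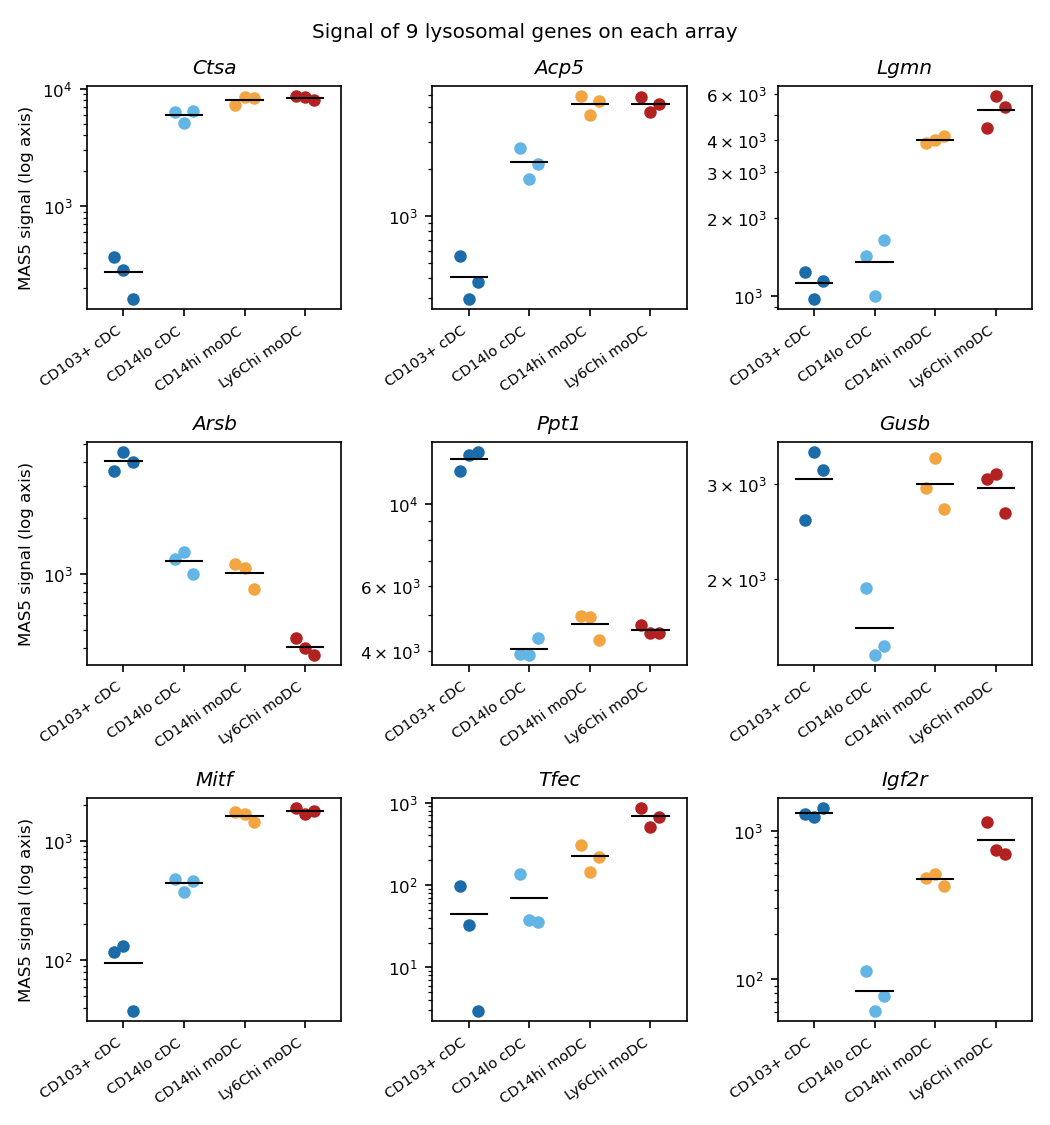
MAS5 signal (log axes) of 9 lysosomal genes on each of 3 arrays per population; lines are population means. Ctsa and Acp5 are lowest in CD103+ cDC, Arsb and Ppt1 highest there, Gusb and Igf2r lowest in CD14lo cDC, and Mitf and Tfec rise toward the moDC.

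Activators present lipids to the hydrolases, and the carrier passes lipid to a membrane protein. Psap encodes the precursor of the saposins, Gm2a the activator that hexosaminidase needs for ganglioside GM2, and Npc2 the soluble carrier that passes cholesterol to NPC1. All 3 varied by less than 2-fold between the population means. Psap read 17302, 13719 and 17737 in CD103+ cDC, 11522, 10731 and 10507 in CD14lo cDC, 11524, 14181 and 16492 in CD14hi moDC and 13161, 13407 and 12548 in Ly6Chi moDC. Npc2 read 20244, 17749.9 and 26761 in CD103+ cDC, 14847, 15768 and 14798 in CD14lo cDC, 16992, 19396 and 21212 in CD14hi moDC and 17606, 19411 and 16170.2 in Ly6Chi moDC. In both, the CD14lo arrays were below the CD103+ arrays, by 0.56 ± 0.13 for Psap (CD103+ minus CD14lo, adjusted p = 0.0036) and 0.49 ± 0.14 for Npc2 (adjusted p = 0.012), and neither was called between cDC and moDC. Gm2a read 21308, 18056 and 19039.8 in CD103+ cDC, 15937, 14663 and 17210.3 in CD14lo cDC, 12156, 13866 and 16723 in CD14hi moDC and 15386, 15082 and 13078 in Ly6Chi moDC. Its rise in the cDC was small (0.30 ± 0.09, adjusted p = 0.013) and the sides overlapped. Without both CD103+ arrays of high Gapdh ratio, replicates 1 and 3, these 3 calls were lost, with adjusted p of 0.25 for Psap, 0.39 for Npc2 and 0.098 for Gm2a, and quantile normalization also ended that of Npc2 (0.10, adjusted p = 0.47). The probe sets of Npc2 did not agree in the lineage comparison: the mean of all that passed the filter was lower in the cDC (-0.33, adjusted p = 0.0026).

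The membrane proteins were lower in the cDC where called. Cd68, macrosialin, a lysosomal glycoprotein used as a macrophage marker, read 2725, 3708 and 2264 in CD103+ cDC, 8171, 5256 and 6437 in CD14lo cDC, 9969.7, 11241 and 11266 in CD14hi moDC and 10536, 11909 and 9047 in Ly6Chi moDC. It had 3 levels without overlap: CD103+ cDC lay below CD14lo cDC (-1.18 ± 0.18, adjusted p = 4.7e-05) and CD14lo cDC below both moDC. Npc1, the membrane protein that exports cholesterol from the lysosome, read 722, 619.7 and 446 in CD103+ cDC, 1007, 916 and 965 in CD14lo cDC, 1428, 1494 and 1375 in CD14hi moDC and 1676, 1420.1 and 1677 in Ly6Chi moDC. The same 3 levels were seen, with CD103+ cDC -0.67 ± 0.16 from CD14lo cDC (adjusted p = 0.0044) and CD14hi moDC 0.55 ± 0.16 from them (adjusted p = 0.026, and up to 0.11 under other settings, single arrays left out among them). Lamp1 and Lamp2 are the major glycoproteins of the lysosomal wall. Lamp1 read 7267, 7627 and 6791 in CD103+ cDC, 9963, 7856 and 7948 in CD14lo cDC, 11747, 13717 and 14356 in CD14hi moDC and 12194, 11973 and 11128 in Ly6Chi moDC. Lamp2 read 4427, 3749 and 5106 in CD103+ cDC, 4403, 4637 and 5156 in CD14lo cDC, 6821, 6205 and 6167 in CD14hi moDC and 7805, 7861 and 7213 in Ly6Chi moDC. In each, no cDC array reached the lowest moDC array, yet the steps were under 2-fold by the probe sets used. The cDC mean minus the moDC mean was -0.66 ± 0.09 for Lamp1 (adjusted p = 5.1e-06) and -0.61 ± 0.09 for Lamp2 (adjusted p = 2.2e-05). The further probe sets of Lamp2 gave larger differences there (-0.92, -1.11 and -1.06). Between CD14hi moDC and CD14lo cDC the calls by the probe sets used were unequal in strength. They were 0.63 ± 0.12 for Lamp1 (adjusted p = 0.0012) and 0.43 ± 0.13 for Lamp2 (adjusted p = 0.025, and up to 0.14 under other settings). The further probe sets of Lamp2 were all called higher in CD14hi moDC in that pair (0.49, 0.65 and 0.56). Scarb2, the receptor that carries glucocerebrosidase to the lysosome, was not called between cDC and moDC (-0.26 ± 0.10, adjusted p = 0.051) but was higher in Ly6Chi moDC than in each other population. Mcoln1, a calcium channel of the lysosome, averaged 439, 566, 656 and 621 in the order CD103+, CD14lo, CD14hi and Ly6Chi and was called in 1 of 6 pairs, lower in CD103+ cDC than in CD14hi moDC (-0.55 ± 0.21, adjusted p = 0.043).

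The proton pump has a cytosolic V1 part that splits ATP and a membrane V0 part that passes protons. Of its 8 subunits 6 were called lower in the cDC, each by less than 2-fold by the probe sets used, and 2 (Atp6v0a1 and Atp6v0d2) were not called. Further probe sets of Atp6v1b2 gave -1.17 (adjusted p = 5.7e-04), -0.97 and, not called, -0.40. All 4 of the V1 genes (Atp6v1a, Atp6v1b2, Atp6v1c1 and Atp6v1h) were called lower, with a median of -0.56, and 2 of the 4 V0 genes, Tcirg1 and Atp6v0d1. Tcirg1, the a3 form of the V0 a subunit, known from osteoclasts, read 2269, 2341 and 2599.7 in CD103+ cDC, 4925, 4514 and 5085 in CD14lo cDC, 6366, 5282 and 6047 in CD14hi moDC and 6714, 7122 and 7786 in Ly6Chi moDC. CD103+ cDC were 1.99-fold below CD14lo cDC (SE 0.12 on the log2 scale, adjusted p = 5.1e-06), and their arrays were below all 9 others. Its paralog Atp6v0a1, the a1 form, read 2515, 2440.4 and 1869 in CD103+ cDC, 2637, 1611 and 1901 in CD14lo cDC, 2256, 2461 and 2606 in CD14hi moDC and 1670.4, 1715 and 1314 in Ly6Chi moDC. Here CD103+ and CD14lo cDC overlapped and Ly6Chi moDC had the lowest mean, -0.63 ± 0.18 from CD14hi moDC (adjusted p = 0.016), a call lost without CD14hi replicate 2 or 3 or Ly6Chi replicate 3 (adjusted p up to 0.093) and with each array centred at its median (0.12).

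Atp6v1c1, the C subunit that takes part in joining V1 to V0, read 2151, 2226 and 3273 in CD103+ cDC, 3557, 3703 and 3305 in CD14lo cDC, 3582, 3841 and 5435 in CD14hi moDC and 6455, 6397 and 7519 in Ly6Chi moDC. Ly6Chi moDC were above CD14hi moDC by 0.68 ± 0.17 (adjusted p = 0.0083) and without CD14hi replicate 1 this was 0.56 with an adjusted p of 0.052. The difference between the cDC (-0.48 ± 0.17, adjusted p = 0.041) was lost under several other settings, among them without CD103+ replicate 1 (-0.38, adjusted p = 0.16), and 2 further probe sets of the gene were not called there. Atp6v1b2, the B subunit of most cells, read 2309.8, 2246 and 2383 in CD103+ cDC, 2229.7, 1799 and 2049.9 in CD14lo cDC, 2699, 3349 and 3326 in CD14hi moDC and 4093, 3583 and 3771 in Ly6Chi moDC. Each moDC array was above each cDC array, and CD14hi moDC exceeded CD14lo cDC by 0.61 ± 0.13 (adjusted p = 0.003). Atp6v1a, the catalytic A subunit, read 2178, 1679.9 and 2118 in CD103+ cDC, 2048, 2213 and 2185 in CD14lo cDC, 2698, 2669 and 2737 in CD14hi moDC and 3256, 2746 and 3158 in Ly6Chi moDC. It was lower in the cDC (-0.47 ± 0.09, adjusted p = 5.4e-04) with no overlap, and neither pair within a lineage was called. Atp6v1h and Atp6v0d1 were lower in the cDC, with differences of -0.38 ± 0.12 and -0.22 ± 0.08 (cDC minus moDC). In the limma fit of all kept probe sets the adjusted p of Atp6v0d1 was 0.048. Its means were 3530, 3573, 3652 and 4717 in the order CD103+, CD14lo, CD14hi and Ly6Chi. CD14hi moDC were not called against CD14lo cDC (0.03), and Atp6v0d1 was higher in Ly6Chi moDC than in each of the 3 others.

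Atp6v0d2, the d2 form of the V0 d subunit, found in osteoclasts and some macrophages, was called in no pair. It read 232, 338 and 44.7 in CD103+ cDC, 894, 148 and 105 in CD14lo cDC, 394, 227 and 146 in CD14hi moDC and 347, 109 and 241 in Ly6Chi moDC. CD14lo replicate 1 stood apart from its group, and the cDC minus moDC difference was -0.09 ± 0.40 (95% interval -1.02 to 0.83). Of the 11 alveolar macrophage markers tested, 10 were highest in that replicate within CD14lo cDC. In the other populations fewer were highest in the array where Atp6v0d2 was: 5 of 11 in CD14hi moDC (replicate 1), 5 of 11 in Ly6Chi moDC (replicate 1) and 3 of 11 in CD103+ cDC (replicate 2). Car4, Chil3 and Marco, chosen for display after their values were seen, read 2315, 235 and 257, 3941, 589.7 and 397 and 685, 75.3 and 177 in CD14lo cDC. All 3 peaked with Atp6v0d2 in CD14lo cDC and CD14hi moDC, 1 of the 3 did in Ly6Chi moDC and 0 in CD103+ cDC. Over the whole marker list, 11 tested genes of 12 with a probe set, the summed signal was 22407 to 32999 in CD14lo cDC and 24029.7 to 33076 over the other populations, with Siglecf at 223 to 529 over all 12 arrays. The Atp6v0d2 values above are of the probe set used. For CD103+ minus CD14lo cDC it gave -0.49 and a second, dimmer probe set 0.52. For CD14hi moDC minus CD14lo cDC they gave -0.09 and 0.64, and none of these was called. The part of alveolar macrophage RNA in the Atp6v0d2 signal was not tested.

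**Figure D4:**
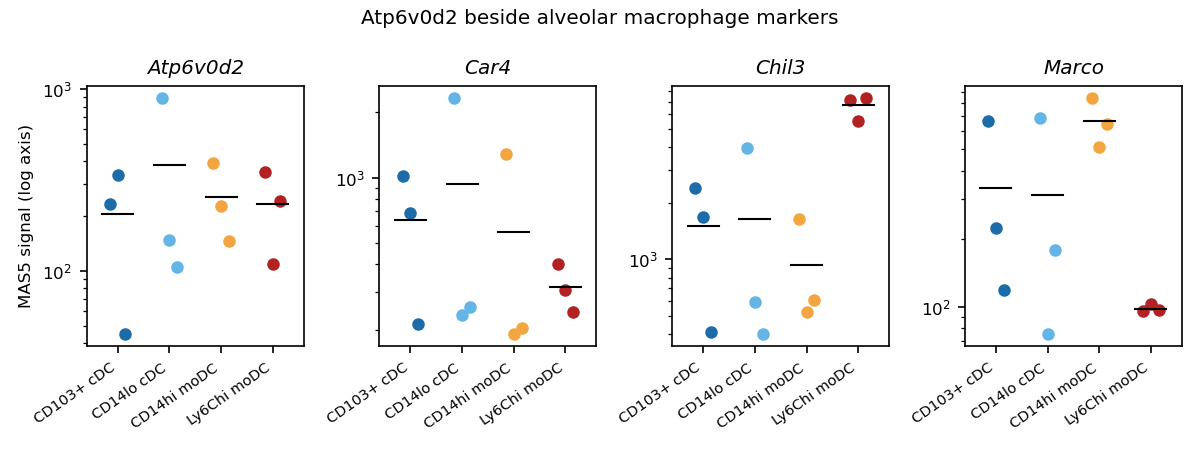
MAS5 signal (log axes) on each of 3 arrays per population for the pump gene Atp6v0d2 and the alveolar macrophage markers Car4, Chil3 and Marco; points run from replicate 1 to 3 and lines are means. CD14lo cDC replicate 1 is the highest of its group in all 4 panels, while in CD103+ cDC none of the 3 markers, chosen after their values were seen, peaks in the replicate where Atp6v0d2 does.

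The sorting receptors differed from each other. Igf2r encodes the cation-independent mannose 6-phosphate receptor, which also takes up insulin-like growth factor 2. Its signal was 1292, 1229.7 and 1417 in CD103+ cDC, 113, 60.7 and 76.9 in CD14lo cDC, 479.7, 507 and 425 in CD14hi moDC and 1137, 742 and 695 in Ly6Chi moDC. All 4 populations were separate and all 6 pairs were called: CD103+ cDC were highest and CD14lo cDC lowest, 3.37 ± 0.20 apart (adjusted p = 5.2e-10). On 2 of 3 CD14lo arrays Igf2r read below the array's median signal, so no fold is given, and over the settings run the difference ranged from 2.42 to 3.86. Its lower mean in the cDC (-0.68 ± 0.14, adjusted p = 6.6e-04) therefore averaged the highest and the lowest population. CD14hi moDC were above CD14lo cDC by 1.98 ± 0.20 (adjusted p = 1.1e-06). The step between the moDC (0.77 ± 0.20, adjusted p = 0.0096) was lost without Ly6Chi replicate 1 (0.56, adjusted p = 0.075). A second probe set of Igf2r gave 2.89 for CD103+ minus CD14lo cDC and 2.02 for CD14hi moDC minus CD14lo cDC. For Ly6Chi minus CD14hi moDC it gave 0.34, which was not called. M6pr, the cation-dependent receptor, read 7407, 6304 and 7028 in CD103+ cDC, 4425, 5096 and 4976 in CD14lo cDC, 5071, 5377 and 5904 in CD14hi moDC and 5591, 5490.3 and 6126 in Ly6Chi moDC. CD103+ arrays were above all others, by 0.51 ± 0.12 over CD14lo cDC (adjusted p = 0.0031, and 0.13 without both CD103+ arrays of high Gapdh ratio).

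The transcription factors Mitf and Tfec were lower in both cDC than in both moDC, and Tfeb had its lowest mean in CD103+ cDC. Mitf, the master regulator of melanocytes that also acts in osteoclasts and macrophages, read 117, 130.0 and 37.4 in CD103+ cDC, 481, 373 and 461 in CD14lo cDC, 1726, 1668 and 1428 in CD14hi moDC and 1871, 1664 and 1786 in Ly6Chi moDC. CD103+ cDC were below CD14lo cDC (-1.82 ± 0.22, adjusted p = 4.9e-06) and CD14hi moDC above CD14lo cDC (1.76 ± 0.22, adjusted p = 1.4e-05), with no overlap at either step, while the moDC overlapped. The cDC minus moDC difference of -2.74 ± 0.16 (adjusted p = 9.5e-11) ranged from -3.04 to -2.13 over the settings run. Tfec, a member of the same family found mostly in macrophages, was dim and read 96.4, 32.6 and 2.95 in CD103+ cDC, 137, 37.2 and 35.6 in CD14lo cDC, 306, 143 and 219 in CD14hi moDC and 855, 510.5 and 669 in Ly6Chi moDC. Ly6Chi moDC were above CD14hi moDC (1.43 ± 0.36, adjusted p = 0.0075) and CD14hi moDC above CD14lo cDC (1.24 ± 0.36, adjusted p = 0.021). Both steps lost their call with a smaller pseudocount (adjusted p = 0.074 and 0.062), and the second also without single CD14lo or CD14hi arrays (up to 0.11). Tfeb read 495, 749 and 345 in CD103+ cDC, 1089, 937 and 1075 in CD14lo cDC, 675, 807 and 702 in CD14hi moDC and 845, 996 and 684 in Ly6Chi moDC. CD14lo cDC had the highest mean and overlapped with Ly6Chi moDC, and CD103+ cDC were -0.96 ± 0.21 from them (adjusted p = 0.0021, and 0.24 without both CD103+ arrays of high Gapdh ratio). CD103+ cDC were also below Ly6Chi moDC (-0.67 ± 0.21, adjusted p = 0.015). Tfeb was not called between cDC and moDC (-0.09 ± 0.15, 95% interval -0.44 to 0.25). Of the 13 tested genes with CACGTG in a window, 10 were lower and none higher in the cDC (median -0.66). Of the 27 tested genes whose windows lacked it, 15 were lower and 3 higher (median -0.41). Of all genes tested, 20.7% were lower and 20.8% higher, and these were not split by the motif. With so few genes the 2 counts are imprecise, and a part of the motif in the levels was not tested.

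The second question was what parts CD14hi moDC from CD14lo cDC, both CD11bhi. Of the 47 genes 19 were higher in CD14hi moDC and 0 lower, where 16.2% of all genes tested were called, 9.24% higher and 6.95% lower. The median was 0.36 against -0.01 over all genes. In limma, 0 of the 47 were lower at the adjusted threshold and 1 at an unadjusted p under 0.05, Tfeb (-0.48 ± 0.21, adjusted p = 0.15). Gm2a was called lower with quantile normalization (-0.37, adjusted p = 0.0034) and with the mean of its probe sets (-0.53, adjusted p = 0.0073). The 19 were 11 hydrolases, 4 membrane proteins, 1 pump subunit, 2 transcription factors and 1 sorting receptor, and 8 of them were at least 2-fold higher, Igf2r, Galc, Mitf and Lgmn among them, where 4.79% of all genes were. For 29 of the 47 every CD14hi array lay above every CD14lo array, where 16.3% of all genes did, and for 1 below, where 16.2% did. With single arrays left out the 19 ranged from 13 to 20. A further probe set lost the call in Atp6v1b2, the pump subunit, and in Gla, while another of Atp6v1b2 kept it. Further ones gained a call in CD14hi moDC, higher in Atp6v1c1 (0.46 and 0.50), Ctsa and Npc2 and lower in Gm2a (-0.63 and -0.79). Monocyte or macrophage markers were higher in 7 of 8 tested in the same comparison. Fibroblast or endothelium markers were higher in 4 of 7, with sums of 4813 to 5626 in CD14hi moDC against 1661 to 2093 in CD14lo cDC. Of the NK cell markers 2 were tested and 1 was lower in CD14hi moDC, with sums of 1839 to 2368 against 7071 to 8251, while Gzmb, Ncr1, Eomes and Nkg7 were too dim for the filter. The part of these in the result was not tested.

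The third question concerned the 2 conventional populations. CD103+ cDC had 8 genes higher and 11 lower than CD14lo cDC, where 28.7% of all genes were called, 13.4% higher and 15.3% lower, so the higher count lay near the background and the lower count somewhat above it, with a median of -0.10 against -0.03. By arrays without overlap, 11 lay above and 14 below, where 18.6% and 20.6% of all genes did. Higher were the hydrolases Arsb, Ppt1, Gusb and Fuca1, the carriers Psap and Npc2, and both sorting receptors. Lower were the hydrolases Ctsa, Acp5, Acp2, Tpp1 and Manba, the membrane proteins Cd68 and Npc1, the pump subunits Tcirg1 and Atp6v1c1 and the transcription factors Mitf and Tfeb. Without both CD103+ arrays of high Gapdh ratio 5 were higher, the remaining CD103+ array being assumed to vary like the other groups. Against each of the 3 other populations 10 genes were lower in CD103+ cDC (Manba, Tpp1, Acp2, Acp5, Ctsa, Cd68, Npc1, Atp6v1c1, Tcirg1 and Mitf), where 9.95% of all genes were, and 3 were higher (Ppt1, Arsb and Igf2r), where 9.47% of all genes were. Between the 2 cDC a further probe set lost the call in Fuca1, Npc2 and Atp6v1c1. Further ones gained a call in CD103+ cDC, higher in Atp6v0a1 and lower in Lipa and Lamp2. All further probe sets of Lamp2 were called lower (-0.46, -0.45 and -0.46).

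The last planned comparison set Ly6Chi against CD14hi moDC. Of the 47 genes 7 were higher in Ly6Chi moDC (Gla, Neu1, Scarb2, Atp6v0d1, Atp6v1c1, Tfec and Igf2r) and 3 lower (Arsb, Lipa and Atp6v0a1), where 18.2% of all genes were called, 6.82% higher and 11.4% lower. The median was 0.10 against -0.01. By arrays without overlap, 14 lay above and 4 below, where 16.9% and 19.1% of all genes did. These counts moved with the setting. With each array centred at its median, which moved the median of all genes to 0.21, 12 were higher and 1 lower. Leaving out CD14hi replicate 1 or 2 or Ly6Chi replicate 1 or 3 left 4 higher, and without CD14hi replicate 2 only 1 was lower. A further probe set lost the call in Neu1, Igf2r, Atp6v1c1, Lipa and Atp6v0a1, and that of Neu1 had the other sign (-0.32). In Lipa and Atp6v0a1 another further probe set kept it. Further probe sets gained a call in Ids, lower in Ly6Chi moDC, and in Lamp2, higher there. Of the 7, 6 (all but Igf2r) were also higher in Ly6Chi moDC than in each cDC, where 3.39% of all genes were higher than each other population, and without CD14hi replicate 1 or 2 or Ly6Chi replicate 3 this was 3. Neutrophil markers were higher in Ly6Chi moDC for 3 of the 4 tested, with sums of 3971 to 4303 against 348 to 2281 in the other populations, and Ngp, Camp and Cxcr2 did not pass the filter. The part of neutrophil RNA in these results was not tested.

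**Figure D5:**
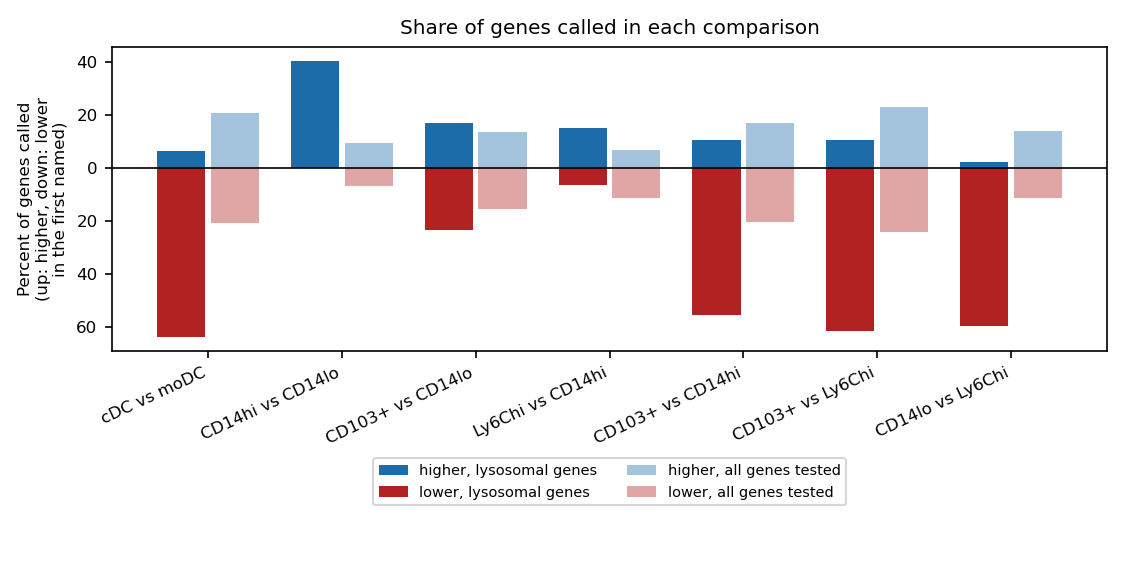
Percent of genes called higher (upward, blue) and lower (downward, red) in the first-named population of each of 7 comparisons, for the 47 lysosomal genes (dark) and all 10929 genes tested (light), bars starting at 0. The lysosomal genes pass the background toward the moDC side in each comparison of cDC with moDC (red where the cDC is named first, blue for CD14hi against CD14lo), and CD103+ against CD14lo cDC has calls in both directions.

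The comparisons share arrays with one another, and the remaining pairs are given side by side. Against CD14hi moDC, CD103+ cDC had 5 genes higher and 26 lower, where 16.9% and 20.3% of all genes were called. Against Ly6Chi moDC, CD103+ cDC had 5 higher and 29 lower, where 23.2% and 24.3% were called, and the 5 fell to 2 without Ly6Chi replicate 3 and to 3 without CD103+ replicate 1. CD14lo cDC had 1 higher (Arsb) and 28 lower than Ly6Chi moDC, where 14% and 11.2% were called. A difference among the 4 populations, by limma's moderated F-test, was called for 40 of 47 genes, where it was for 51.1% of all genes tested, and 41 (87.2%) were called in at least 1 of 6 pairs, where 60% of all genes were. The 6 without a call in any pair, by the probe sets used, were Ids, Man2b1, Sgsh, Smpd1, Arsa and Atp6v0d2. Their cDC minus moDC differences ran from -0.12 in Arsa to 0.19 in Sgsh, with a 95% interval of -0.17 to 0.29 for Ids, the sulfatase of heparan and dermatan sulfate, and -0.45 to 0.33 for Smpd1, the acid sphingomyelinase.

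Ordered by mean signal, 23 of the 47 genes were highest in Ly6Chi moDC (48.9%, against 29.1% of all genes), 11 in CD14hi moDC (23.4% against 19.7%), 11 in CD103+ cDC (23.4% against 33.4%) and 2 in CD14lo cDC (4.26% against 17.8%). The lowest population was CD103+ cDC for 24 (51.1%, against 36.7% of all genes), CD14lo cDC for 17 (36.2% against 14.5%), Ly6Chi moDC for 4 (8.51% against 30.3%) and CD14hi moDC for 2 (4.26% against 18.5%). A rise in each step from CD103+ over CD14lo cDC and CD14hi moDC to Ly6Chi moDC was seen in 17 genes, 36.2% against 12% of all genes. Set against each of the 3 others, CD14lo cDC were lower in 2 (Gusb and Igf2r, where 0.686% of all genes were) and higher in 0 (1.35%), CD14hi moDC were higher in 1 (Lipa, 1.97%) and lower in 0 (0.595%), and Ly6Chi moDC were lower in 1 (Arsb, 6.52%). No gene among the 17 had all 3 steps called, so the order describes means: for Tcirg1 the CD103+ step alone was called between neighbours, and for Mitf the first and the middle step.

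Other genes of the same organelle were read by lists, with log2 differences of cDC minus moDC in parentheses unless another pair is named. The counts stand beside the background given above, 20.7% of all genes lower and 20.8% higher in the cDC. Of 11 cathepsins tested, 6 were lower in the cDC and 5 were not called (median -0.36). Ctsd, the main aspartic protease, averaged 829 ± 259, 2639 ± 1059, 7361 ± 312 and 10701 ± 1004 in the order CD103+, CD14lo, CD14hi and Ly6Chi (-2.59, adjusted p = 2.7e-10), Ctsl 211 ± 52.6, 365 ± 128, 1325 ± 302 and 2592 ± 281 (-2.56, adjusted p = 4.4e-10) and Ctsb 4909 ± 763, 7382 ± 703, 15723 ± 1423 and 14671 ± 1297 (-1.33, adjusted p = 1.2e-09). Ctss, which trims the invariant chain in antigen-presenting cells, was not called (-0.19, adjusted p = 0.061). Of 23 other lysosomal membrane genes, 16 were lower and 2 higher (median -0.51). Slc11a1, the metal transporter NRAMP1 of phagosomes, averaged 652 ± 107, 1334 ± 240.3, 6481 ± 1299 and 6889 ± 805 (-2.77, adjusted p = 4.9e-12), and Slc36a1, an exporter of amino acids, 66.2 ± 43.1, 401 ± 74.0, 786 ± 23.1 and 1597 ± 96.9 (-2.39, adjusted p = 3.8e-10). Laptm4b went the other way at 17080.3 ± 2342, 1311 ± 374, 1503 ± 171 and 960.2 ± 357 (1.96, adjusted p = 2.0e-08), with CD103+ cDC alone high.

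These shares of lower genes, and that of the next list, lay above the background. Of 17 other lysosomal enzymes 8 were lower and 3 higher in the cDC (median -0.47). Pla2g15, the lysosomal phospholipase A2, averaged 146 ± 65.3, 248 ± 114, 1484 ± 197 and 1671 ± 157 (-2.80, adjusted p = 3.1e-10), Ggh, which cuts glutamate from folates, was lower too (-1.01, adjusted p = 5.8e-06), and Pgap6 higher (1.59, adjusted p = 2.6e-08). Among the pump genes outside the set, of 10 tested 3 were lower (Atp6ap1, Atp6v1e1 and Atp6v0b) and 1 higher (Atp6v0a2), with a median of -0.05. In lists this short, these counts and those of the next list are close to the background. Of 13 genes of enzyme tagging and sorting, 4 were lower, led by Ap1s1 (-0.96) and Gnptg (-0.72), and 1 higher, Gga3 (0.89, adjusted p = 1.2e-05), with a median of -0.01. Of 17 genes of nutrient sensing at the lysosome and other regulators, 7 were lower and 4 higher (median 0.04), the higher share being near the background. Rragd, a GTPase that brings mTORC1 to the lysosome, averaged 1052 ± 273, 114 ± 11.8, 97.1 ± 7.11 and 54.9 ± 16.1, 2.72 for CD103+ minus CD14lo cDC (adjusted p = 1.6e-08), and Lamtor4, part of its anchor, was lower in the cDC (-1.11, adjusted p = 3.9e-06), as was Flcn, folliculin (-0.73, adjusted p = 1.1e-04). Tfe3, a further relative of Tfeb, was called lower in the cDC (-0.34, adjusted p = 0.013), with means of 1800.2 ± 246, 2052 ± 226, 2128 ± 214 and 2789 ± 275.

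Probe sets of a gene were compared where several passed the filter. Besides the probe sets used, 53 others stood for 31 of the 47 genes. They gave the same call 44 times for cDC against moDC, 42 for CD14hi moDC against CD14lo cDC, 41 for CD103+ against CD14lo cDC and 43 for Ly6Chi against CD14hi moDC, and 0 gave a call in the opposite direction. For cDC against moDC a further probe set lost the call in Atp6v1b2 and Atp6v1h. Further ones gained a call higher in the cDC in Atp6v0a1 (0.43), Ids (0.56) and Man2b1 (0.79), and lower in Npc2 and Scarb2. A second, dimmer probe set of Ctsa was also lower in CD103+ than in CD14lo cDC (-1.52), and a second of Mitf as well (-0.93). A second probe set of Arsb gave 1.69 for the same pair.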

How the data were processed

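The data are MAS5 signal intensities of 45101 probe sets on 12 mouse arrays, as deposited by the authors. MAS5 is named per the submitters' processing notes; for its version, scaling target and detection calls the sources used here give nothing. Per the labels, cells were sorted to over 93% purity and 50 ng of RNA was amplified with WT-Ovation Pico and labelled with Encore Biotin. The deposited intensities share a 2% trimmed mean of about 500.003 on every array, so no further scaling was applied. The labels do not say whether same-numbered replicates of different populations share mice.

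Control probe sets (64) were left out. By the platform annotation 34945 probe sets have 1 gene symbol, 932 several and 9160 none, and only the first kind was used. A probe set was kept when its signal exceeded the array median on at least 3 of 12 arrays, and of each gene the kept one of the highest mean was tested, which left 10929 genes. Values were log2(signal + 50.0003), the pseudocount being 10% of the trimmed mean. limma 3.58.1 in R 4.3.3 fitted the 4 populations together (lmFit, eBayes with an intensity trend, 8 residual degrees of freedom) with 7 contrasts and an F-test, adjusted by Benjamini-Hochberg over all genes. The 95% intervals are unadjusted and take limma's SE with the 8 residual degrees of freedom. They are therefore wider than those of the moderated test. The steps were tested on simulated data. Figures were drawn with matplotlib 3.10.9.

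Each replicate pooled 20 mice, and p-values measure the spread between these pools. Values on each array are given for 26 genes: the called genes of the largest difference in each role (9 hydrolases, 3 activators or carriers, 4 membrane proteins, 5 pump subunits), with all transcription factors and sorting receptors. Up to 3 genes per pathway list are given as means or as differences only. Atp6v0d2, Car4, Chil3, Marco, Gusb, Lipa, Glb1, Neu1, Scarb2, Mcoln1, Ctss, Tfe3 and other genes named outside that rule were chosen after their values were seen. The genes and lists were chosen with earlier results of these data known. Promoter windows came from RefSeq (GRCm38.p6). No genome or protein table was used here. The alternatives were quantile normalization, centring at the median, other pseudocounts and filters, averaging a gene's probe sets, fits without a trend or on the compared arrays, a 2-fold minimum, a replicate block and single arrays left out.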

Additional observations from a re-analysis of the deposited data

How the results depend on the processing

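The number of arrays, 3 per population, limits the precision, and dim genes such as Tfec and Atp6v0d2 have SEs of 0.25 and 0.40 (log2, cDC minus moDC). Of the listed genes with values on each array, no difference that was called changed direction under any alternative run: over all these genes, 4 comparisons and settings, 2380 values kept their side of the threshold, 91 lost a call and 21 gained one. The cause of each change was not tested, except that a 2-fold minimum removes smaller differences by its construction. The remaining alternatives moved no count of calls by over 1.5 times.

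With each array centred at its median, 2 genes were higher in CD103+ cDC than in Ly6Chi moDC, 12 were higher and 1 lower in Ly6Chi than in CD14hi moDC, and 11 were higher in Ly6Chi moDC than in each other population. This centring moved the median of all genes to -0.11 for CD14hi moDC minus CD14lo cDC, 0.21 for Ly6Chi minus CD14hi moDC, -0.14 for CD103+ cDC minus Ly6Chi moDC and -0.11 for CD14lo cDC minus Ly6Chi moDC, where the listed genes had medians of 0.27, 0.32, -0.71 and -0.62. On averaging a gene's probe sets, 9 were higher in CD103+ cDC and 3 in CD14lo cDC than in Ly6Chi moDC, and 1 was lower in CD14hi moDC than in CD14lo cDC. That last count was also 1 with quantile normalization and with only the compared arrays in the fit.

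With a 2-fold minimum, 1 gene was higher and 10 lower in cDC than moDC, 8 higher in CD14hi moDC than CD14lo cDC, 3 higher and 4 lower in CD103+ than CD14lo cDC, and 2 higher and 1 lower in Ly6Chi than CD14hi moDC. At that minimum CD103+ cDC had 3 higher and 13 lower than CD14hi moDC and 2 higher and 16 lower than Ly6Chi moDC, CD14lo cDC had 11 lower than Ly6Chi moDC, both cDC were lower than both moDC in 7, CD103+ cDC were lower than each other population in 4, and Ly6Chi moDC higher in 2. Without both CD103+ arrays of high Gapdh ratio, an alternative chosen after seeing the data, CD103+ cDC had 3 genes higher than CD14hi moDC, 5 than CD14lo cDC and 3 than Ly6Chi moDC.

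With single arrays left out, the counts ranged as follows: 3 higher and 29 to 31 lower in cDC than moDC, 13 to 20 higher and 0 lower in CD14hi moDC than CD14lo cDC, 7 to 8 higher and 9 to 11 lower in CD103+ than CD14lo cDC, and 4 to 7 higher and 1 to 3 lower in Ly6Chi than CD14hi moDC. CD103+ cDC had 4 to 5 higher and 22 to 26 lower than CD14hi moDC, and 2 to 7 higher and 24 to 29 lower than Ly6Chi moDC. CD14lo cDC had 1 higher and 22 to 30 lower than Ly6Chi moDC. The F-test called 35 to 39, both cDC were lower than both moDC in 11 to 16, CD103+ cDC were lower than each other population in 8 to 10 and higher in 2 to 4, and Ly6Chi moDC were higher in 3 to 6.

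The labels do not say whether the replicate numbers pair the samples, and the numbers did not meet the rule used here, that every same-numbered pair correlate above 0.1. Deviations of same-numbered arrays of different populations correlated at -0.11 to 0.24 (mean 0.06) and of others at -0.27 to 0.23 (mean -0.03), and 8 of 12 arrays correlated best with their own number, a hint from the data and not the design. With the replicate number as a block 3 genes were higher and 31 lower in cDC than moDC, 19 higher and 0 lower in CD14hi moDC than CD14lo cDC, the F-test called 39, and 15 were lower in both cDC than in both moDC.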
